A study of Mus musculus with 2 samples.

Results

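Iron handling and metallothionein genes were followed in single white blood cells of the mouse colon during recovery from colitis. The set holds 9 genes, given by name, of the 32285 genes in the count tables: Hmox1, Fth1, Ftl1, Slc40a1, Tfrc, Slc11a1, Hp, Mt1 and Mt2. All 9 were found in both tables and all 9 are described, across the 10 coarser and the 15 finer clusters that the authors deposited and between the genotypes. The mice were C57BL/6, 8 weeks old, and drank water with 2.0% dextran sulphate sodium (DSS, which injures the colon epithelium) for 7 days and plain water for 7 more, to day 14. One library comes from transgenic mice (TG) that overexpress E4BP4, a transcription factor encoded by Nfil3, in macrophages, and the other from wild type mice (WT) given the same treatment. The promoter that drives the transgene and the number of animals in each library are not given in the sources used here. Live CD45+ cells of the lamina propria were sorted and profiled with 10x Genomics 5′ chemistry.

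The TG table held 10143 barcodes and 58884332 UMIs (counted molecules), and the WT table held 9855 barcodes and 69346746 UMIs. The deposited metadata keep 7026 TG and 6466 WT cells, with median depths of 2428 and 2700 UMIs, and 67 of their barcodes occur in both libraries. Levels are CPM (a gene's UMIs per 1000000 UMIs of the same library and cluster), with exact Poisson 95% intervals, and ratios are TG over WT with exact conditional 95% intervals. These intervals cover counting error only, and 1 library per genotype gives no replicate check and no p-value. A gene is called past the fold when its ratio is at least 1.5 or at most the inverse, with at least 50 UMIs over both libraries. Nfil3 itself was not higher in the library labelled transgenic in macrophage-like cells, at 73.8 CPM in TG and 84.4 CPM in WT, so each direction rests on the submitted labels. Ptprc, which encodes CD45, stood between 478 and 1481 CPM in the B-like, macrophage-like, monocyte-like and neutrophil-like clusters and cluster 7 of both libraries. It was lower in the fibroblast-like cluster, with 99.9 CPM in TG and 59.6 CPM in WT.

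Cells take up transferrin-bound iron through the receptor encoded by Tfrc, and phagocytes move iron out of the phagosome with the transporter encoded by Slc11a1. Macrophages also take in red blood cells: haem oxygenase 1 (Hmox1) opens the haem ring and frees its iron, ferritin shells of heavy (Fth1) and light (Ftl1) chains store it, and ferroportin (Slc40a1) exports it. Haptoglobin (Hp) is a plasma and granulocyte protein that binds free haemoglobin, and the metallothioneins Mt1 and Mt2 are small cysteine-rich proteins that bind zinc and copper and are induced by metals, glucocorticoids and inflammation. Iron regulatory proteins bind a short hairpin, the iron response element, in the messenger RNAs of ferritin, ferroportin and the transferrin receptor. In the 5′ UTR this hairpin controls translation, and in the 3′ UTR of Tfrc it controls the stability of the message, so counts of messenger RNA need not follow the protein.

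The hairpins are shown because they mark which of the 9 messages fall under that control. A search for a C, 5 bases, the 6-base loop CAGTGN and 5 bases that pair with the first 5 found 1 element in each 5′ UTR of Fth1, Ftl1 and Slc40a1 and 4 in the 3′ UTR of Tfrc, in GENCODE transcripts on mm10. The same search found an element in 21 of 19008 5′ UTRs (0.110%) and in 100 of 19597 3′ UTRs (0.510%). Capitals mark the loop, with T for U.
Fth1, chr19:9982732-9982760, plus strand: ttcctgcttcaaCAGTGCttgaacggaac
Ftl1, chr7:45459779-45459807, minus strand: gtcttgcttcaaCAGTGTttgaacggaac
Slc40a1, chr1:45925465-45925493, minus strand: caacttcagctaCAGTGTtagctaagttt
Tfrc, chr16:32631219-32631247, plus strand: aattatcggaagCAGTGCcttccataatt
Tfrc, chr16:32631598-32631626, plus strand: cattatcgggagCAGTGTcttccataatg
Tfrc, chr16:32631663-32631691, plus strand: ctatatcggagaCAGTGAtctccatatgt
Tfrc, chr16:32631710-32631738, plus strand: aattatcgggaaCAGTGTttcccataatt
The search covered 1 transcript per gene and found no such element in the UTRs of the transcripts of Hmox1, Slc11a1, Hp, Mt1 and Mt2.

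Mt2 and Mt1 are neighbours on chromosome 8, on the plus strand at 94172664 to 94173568 and 94179082 to 94180327 on mm10, with 5513 bases between them. Their promoters are shown because metal-responsive transcription acts through metal response elements, whose core reads TGCACNC or TGCGCNC on either strand. Promoters for 6 of the 9 genes were matched by symbol in RefSeq (GRCm38.p6). In the 250 bases before the RefSeq start, Mt2 held 3 cores and Mt1 held 1, printed in capitals. These counts depend on the annotation, because the starts of both genes differ between RefSeq and GENCODE. Bases past the RefSeq start were not searched, so cores there are not counted. For Mt1 the printed stretch stops where the GENCODE gene begins.
Mt2, chr8:94172368-94172617, plus strand: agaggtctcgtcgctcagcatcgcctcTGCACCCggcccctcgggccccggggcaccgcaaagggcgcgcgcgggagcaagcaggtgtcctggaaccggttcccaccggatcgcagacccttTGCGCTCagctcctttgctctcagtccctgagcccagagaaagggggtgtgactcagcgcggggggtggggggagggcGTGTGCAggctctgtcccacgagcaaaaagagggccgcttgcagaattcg
Mt1, chr8:94178839-94179081, plus strand: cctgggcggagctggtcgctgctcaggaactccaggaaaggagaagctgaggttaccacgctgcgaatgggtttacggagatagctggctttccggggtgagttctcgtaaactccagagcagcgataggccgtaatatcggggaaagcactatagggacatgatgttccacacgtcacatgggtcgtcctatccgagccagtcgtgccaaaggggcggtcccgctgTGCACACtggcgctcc
Of 32851 promoters of the same length, 21.4% held at least 1 core, 5.17% at least 2 and 1.26% at least 3. Of the other genes matched, Fth1, Ftl1 and Slc11a1 held 0 cores, and Tfrc held 2 overlapping cores before one of its RefSeq starts and 0 before the other.

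The other genes lie on mm10 as follows. Hmox1 is on chromosome 8 (75093621 to 75100589, plus strand), Hp on chromosome 8 (109575128 to 109579172, minus strand), Fth1 on chromosome 19 (9980598 to 9985098, plus strand) and Ftl1 on chromosome 7 (45457944 to 45459884, minus strand). Slc40a1 (45908068 to 45926523, minus strand) and Slc11a1 (74375195 to 74386062, plus strand) are on chromosome 1, and Tfrc is on chromosome 16 (32608920 to 32632794, plus strand). Ferritin genes have processed copies in the genome: Ftl1-ps1 carried 51.5 CPM in TG and 49.3 CPM in WT macrophage-like cells, so a small share of Ftl1 reads could sit there. How reads shared with such copies were counted is not given in the sources used here.

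Among the coarser clusters, 7 of the 9 genes in TG and 8 in WT were highest in macrophage-like, monocyte-like or neutrophil-like cells. The exceptions were Tfrc in both libraries and Mt2 in TG, which was highest in fibroblast-like cells. By the mean of both libraries, all 9 had the same highest coarser cluster when cells were weighted equally. Hmox1 stood high in the phagocyte clusters, with 81.7 CPM in TG and 242 CPM in WT neutrophil-like cells. It stood at 63.3 and 157 CPM in TG and WT monocyte-like cells, and at 103 and 87.5 CPM in TG and WT macrophage-like cells. Coarser cluster 5, led by mast cell proteases, also held it, at 39.4 CPM in TG and 176 CPM in WT. The TG library thus had its highest coarser level in macrophage-like cells and the WT library in neutrophil-like cells. In B-like cells Hmox1 stood at 2.03 CPM in TG and 3.33 CPM in WT. The order of the 4 highest coarser clusters for Hmox1 was not fixed, because the ranges of the 2 libraries overlapped between neighbours.

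Slc11a1 followed Hmox1 closely. Slc11a1 stood at 112 CPM in TG and 188 CPM in WT neutrophil-like cells, and at 91.0 and 177 CPM in TG and WT monocyte-like cells. In macrophage-like cells, where TG Hmox1 was highest, it stood at 71.6 CPM in TG and 86.6 CPM in WT. In coarser cluster 5 it stood at 34.0 CPM in TG and 107 CPM in WT. In B-like cells it was close to 0, with 0.738 CPM in TG and 1.27 CPM in WT.

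Tfrc had its highest level outside these myeloid clusters in both libraries, but was not absent from them. Macrophage-like cells held 11.1 CPM in TG and 12.0 CPM in WT, against 12.2 and 11.7 CPM in TG and WT B-like cells. The highest coarser level of Tfrc was in cluster 7, at 42.9 CPM in TG and 45.0 CPM in WT, from 20 TG and 18 WT UMIs. This cluster of low UMI number was led by haemoglobin and epithelial genes, but markers of several cell types stood high in it. Its summed epithelial markers stood at 8043 CPM in TG and 5656 CPM in WT, and its 6 erythroid markers at 0 CPM in TG and 8082 CPM in WT. Its B cell markers summed to 6622 and 6104 CPM, and its plasma cell markers to 6768 and 5548 CPM, in TG and WT. Which of its cells carried Tfrc was not tested. Among the finer clusters, cluster 13 was highest for Tfrc in WT and cluster 14 in TG, and the ranges of the 2 libraries overlapped between them. Cluster 13 was led by the goblet cell genes Fcgbp, Tff3 and Zg16, with 47.7 CPM in TG and 61.0 CPM in WT, from only 6 TG and 7 WT UMIs. Cluster 14 was led by the plasmacytoid marker Siglech, with 64.4 CPM in 48 TG cells and 42.7 CPM in 22 WT cells. Monocyte-like cells had the lowest Tfrc among the named white blood cell clusters, at 4.16 CPM in TG and 5.11 CPM in WT.

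Slc40a1 was highest in neutrophil-like cells and not in macrophage-like cells. It stood at 127 CPM in TG and 82.5 CPM in WT neutrophil-like cells, at 37.9 CPM in TG and 51.6 CPM in WT fibroblast-like cells, and at 14.6 CPM in TG and 18.7 CPM in WT macrophage-like cells. Among the coarser clusters, both libraries kept neutrophil-like cells apart from fibroblast-like cells, and those apart from the next cluster. Among the finer clusters, cluster 13, led by goblet cell genes, came second, at 39.8 CPM in TG and 78.4 CPM in WT. The finer neutrophil-like cluster stood at 123 CPM in TG and 81.3 CPM in WT, close to cluster 13 in WT. Cluster 13 held only 53 TG and 63 WT cells, and it overlapped fibroblast-like cells. A Slc40a1 UMI was found in 35 of 167 TG and 150 of 648 WT neutrophil-like cells. In B-like cells one was found in 17 of 2236 TG and 23 of 2410 WT cells, at median depths of 2235 and 2445 UMIs, against 1751 and 3529 UMIs in TG and WT neutrophil-like cells. The signal was spread over cells, with at most 4 UMIs in 1 TG cell and 7 in 1 WT cell. In monocyte-like cells Slc40a1 was nearly absent, with 1 UMI in 437 TG cells and 14 UMIs in 814 WT cells.

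**Figure D1:**
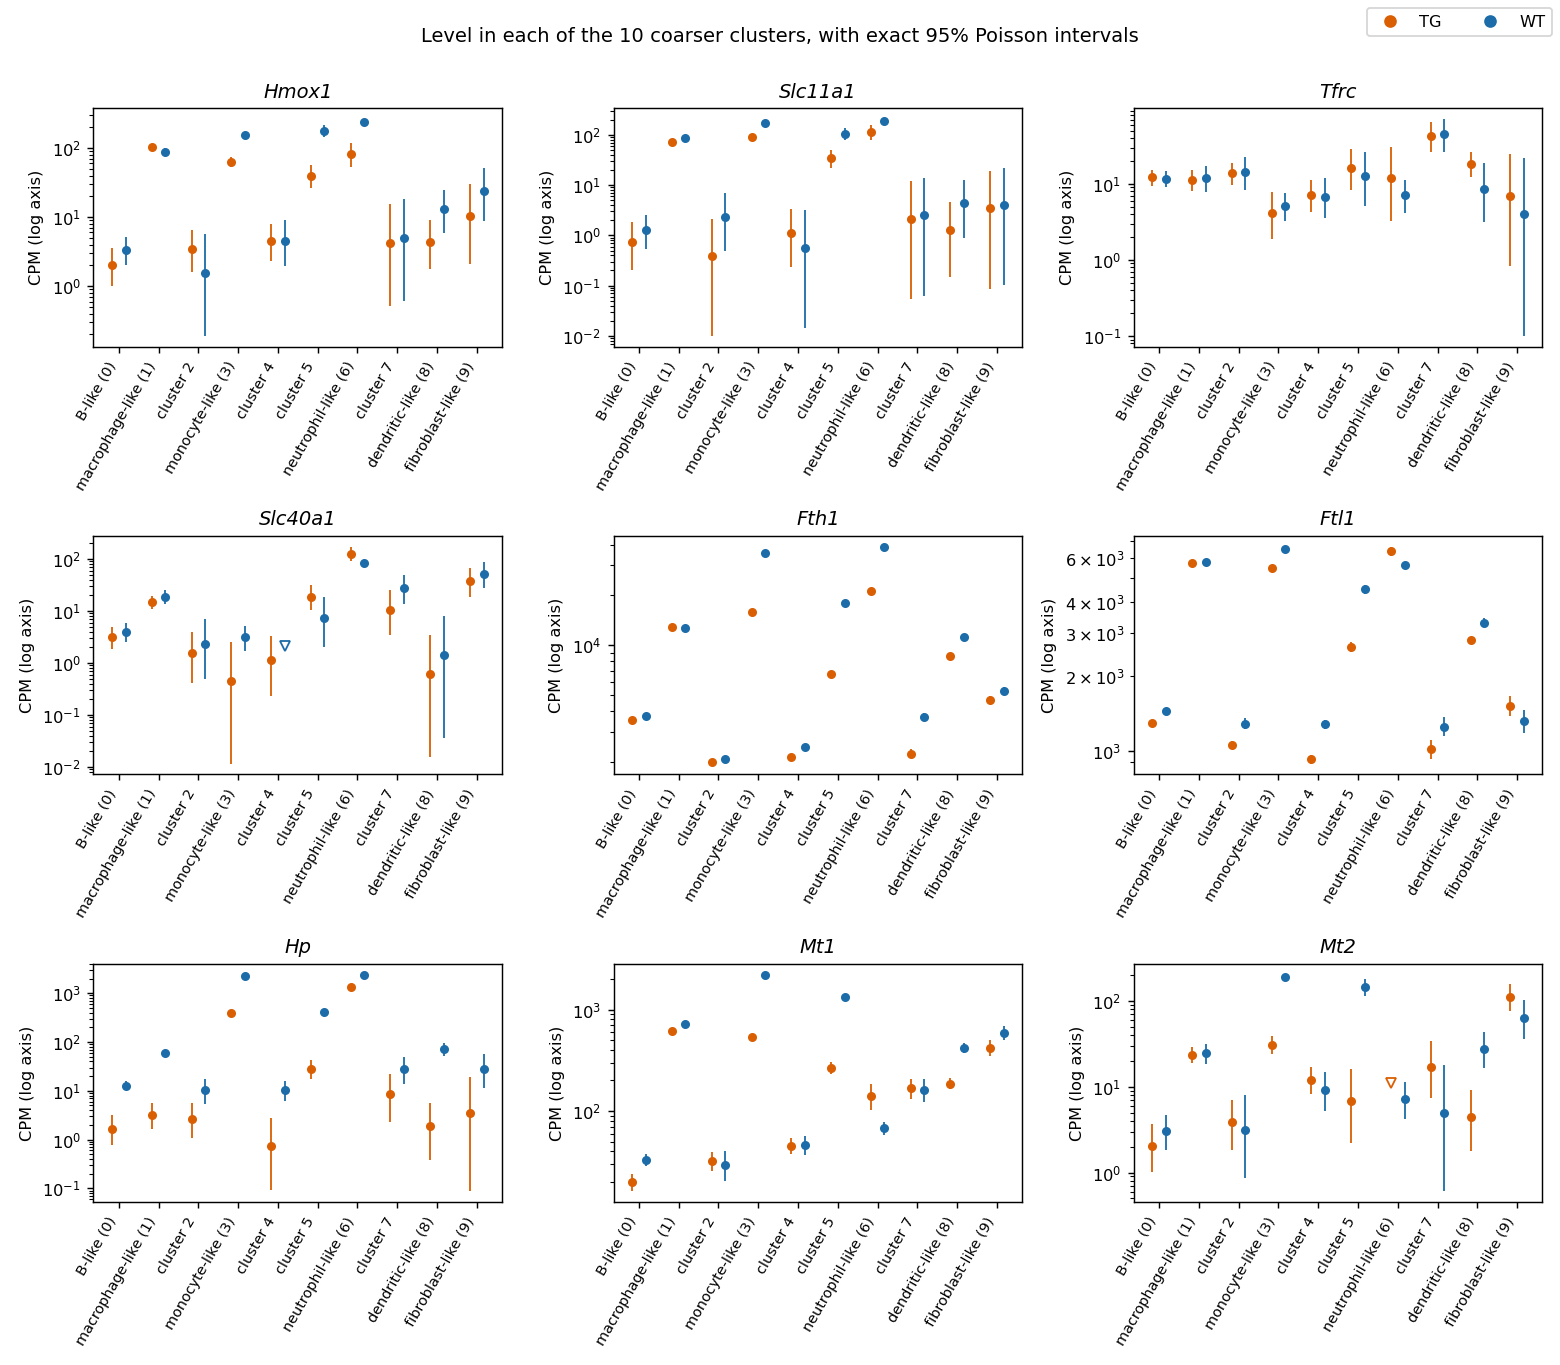
Level of each gene in CPM on a log axis in the 10 coarser clusters, TG left of WT, with exact 95% Poisson intervals; an open triangle is the upper limit where no UMI was counted. Hmox1, Slc11a1, Fth1, Ftl1 and Hp stand highest in phagocyte clusters, Slc40a1 in neutrophil-like cells (127 CPM in TG and 82.5 CPM in WT) and Tfrc in cluster 7 (42.9 and 45.0 CPM in TG and WT).

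By UMIs, the ferritin chains were the most abundant of the 9. Fth1 took 21051 CPM in TG and 38488 CPM in WT neutrophil-like cells, 15673 CPM in TG and 35747 CPM in WT monocyte-like cells, and 12881 CPM in TG and 12611 CPM in WT macrophage-like cells. Lymphoid clusters held far less, down to 2005 CPM in TG and 2076 CPM in WT in cluster 2, which was led by Lef1, Csf2 and Tcf7. Ftl1 had a flatter course. Its levels were 6373 and 5611 CPM in TG and WT neutrophil-like cells, 5449 and 6502 CPM in TG and WT monocyte-like cells, and 5711 and 5776 CPM in TG and WT macrophage-like cells.

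The balance between the chains therefore differed between cell types. A UMI counts the 5′ end of 1 molecule whatever the length of the message, so no division by length was made when genes were set against each other. Macrophage-like cells had 2.26 Fth1 UMIs per Ftl1 UMI in TG (2.22 to 2.29) and 2.18 in WT (2.14 to 2.23). Neutrophil-like cells had 3.30 in TG (3.15 to 3.47) and 6.86 in WT (6.74 to 6.98). The highest values in both libraries were in finer cluster 11, a monocyte-like cluster led by Arg1, Saa3 and Nos2, with 8.16 in TG (7.71 to 8.65) and 12.2 in WT (11.9 to 12.4). The Siglech cluster had 7.58 in TG and 7.51 in WT, and there the intervals overlapped widely. Finer cluster 10, lymphoid and led by Lef1, was the lowest, with 1.52 in TG and 1.36 in WT.

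**Figure D2:**
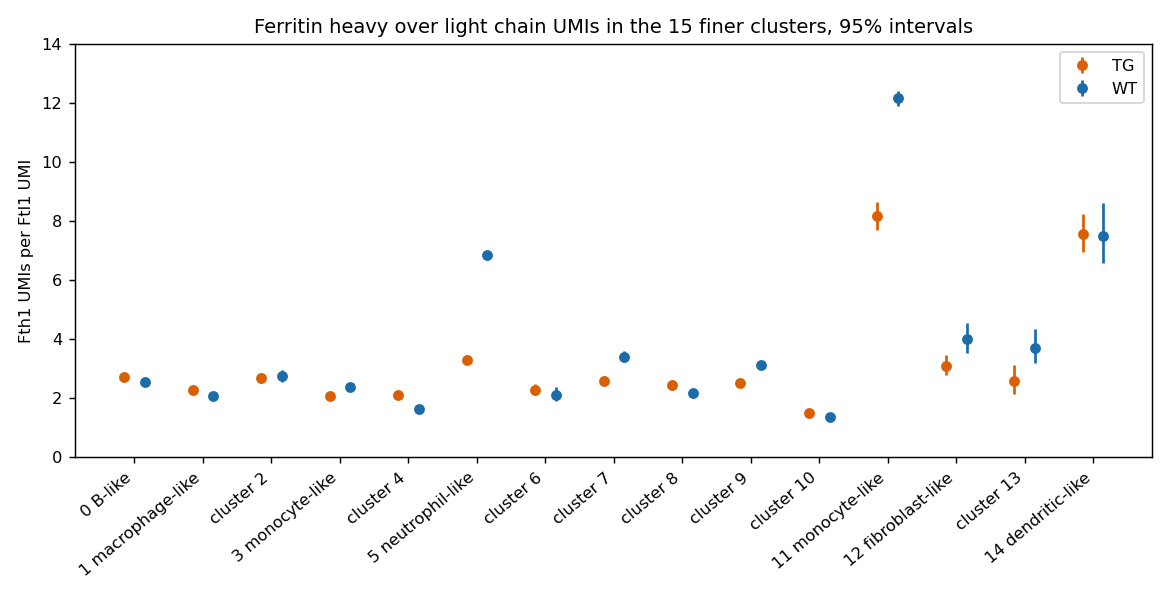
Fth1 UMIs per Ftl1 UMI in the 15 finer clusters, TG left of WT, with exact 95% intervals. Most clusters lie between 1.36 and 4.01, while cluster 11 reaches 8.16 in TG and 12.2 in WT, and the libraries part most in clusters 5 and 11.

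Hp was highest in neutrophil-like and monocyte-like cells. It stood at 1319 CPM in TG and 2354 CPM in WT neutrophil-like cells and at 399 CPM in TG and 2247 CPM in WT monocyte-like cells. In coarser cluster 5 it stood at 28.6 CPM in TG and 415 CPM in WT. In B-like cells and in the lymphoid clusters 2 and 4 it stood between 0.750 and 2.69 CPM in TG and between 10.2 and 12.8 CPM in WT.

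Mt1 and Mt2 had a different course, with monocyte-like, macrophage-like and fibroblast-like cells highest among the named clusters. Mt1 stood at 539 CPM in TG and 2169 CPM in WT monocyte-like cells, at 609 and 720 CPM in TG and WT macrophage-like cells, and at 417 and 588 CPM in TG and WT fibroblast-like cells. In B-like cells it stood at 19.7 CPM in TG and 32.8 CPM in WT. Mt2 stood at 30.9 CPM in TG and 189 CPM in WT monocyte-like cells, at 110.2 and 63.5 CPM in TG and WT fibroblast-like cells, and at 23.3 and 24.4 CPM in TG and WT macrophage-like cells. The weight of Mt1 over Mt2 also depended on the cell type: 26.1 Mt1 UMIs per Mt2 UMI in TG and 29.5 in WT macrophage-like cells, against 3.78 in TG and 9.25 in WT fibroblast-like cells. Mt3 and Mt4, the other metallothioneins, had at most 4 UMIs in the macrophage-like, monocyte-like or neutrophil-like cluster of either library.

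**Figure D3:**
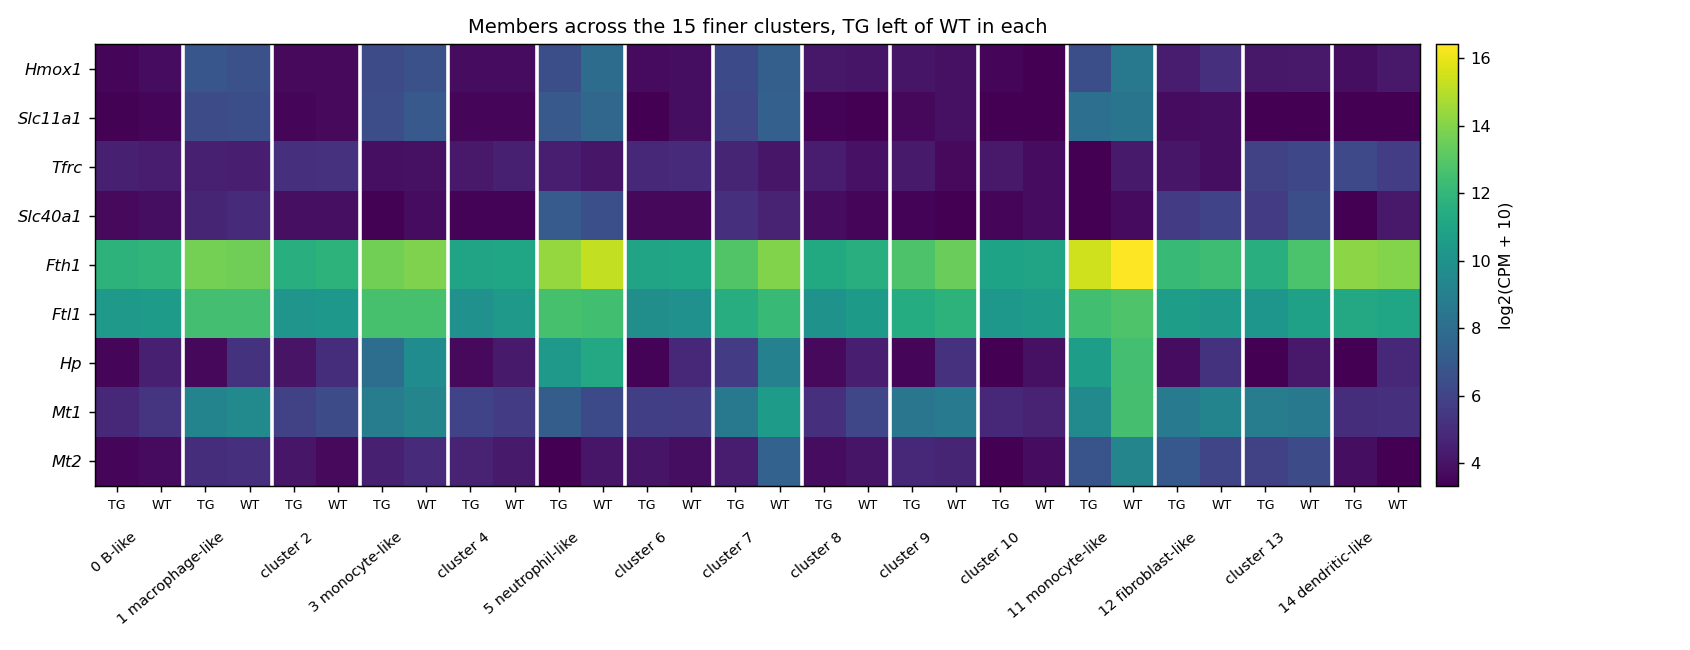
Level of each gene as log2(CPM + 10), in colour, in the 15 finer clusters, TG column left of WT column. Finer cluster 11 holds the highest level of 4 of the 9 genes in TG and of 7 in WT, and Slc40a1 is highest in cluster 5 in both libraries.

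In macrophage-like cells, the type in which the TG mice are described as overexpressing E4BP4, 8 of the 9 genes stood inside the fold between the libraries. Of the 9 genes, 0 were past the fold higher and 1, Hp, was past it lower in TG, while 5.85% of all 8137 genes tested there were higher and 6.19% lower. The 9 genes had a median log2 ratio of -0.11, against -0.05 over all genes tested. The cluster held 1106 TG and 664 WT cells, and all 10 of the macrophage markers listed were at least 2-fold up in it.

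Fth1 stood at 12881 CPM in TG and 12611 CPM in WT, a ratio of 1.02 (1.01 to 1.04), and Ftl1 at 5711 CPM in TG and 5776 CPM in WT, a ratio of 0.989 (0.967 to 1.01). These are the best counted of the 9 genes, with 47494 Fth1 UMIs in TG and 28397 in WT. Hmox1 had 379 UMIs in TG and 197 in WT, at 103 CPM (92.7 to 114) in TG and 87.5 CPM (75.7 to 101) in WT, a ratio of 1.17 (0.987 to 1.40). Mt1 stood at 609 CPM in TG and 720 CPM in WT, a ratio of 0.846 (0.793 to 0.902), below 1 but inside the fold. Slc11a1 had a ratio of 0.827, Mt2 of 0.955, Tfrc of 0.927 and Slc40a1 of 0.785, each with an interval that reaches 1. For Slc40a1 the interval runs from 0.515 to 1.2, and a difference inside that range is not detectable at this depth.

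Hp had 12 UMIs in 7 of 1106 TG macrophage-like cells and 132 UMIs in 51 of 664 WT macrophage-like cells, or 3.25 CPM in TG and 58.6 CPM in WT, a ratio of 0.0555 (0.0280 to 0.10). One WT cell, of the monocyte-like finer cluster 11, held 38 of the 132 UMIs. A further 31 lay in 41 WT cells of the monocyte-like finer cluster 3. The neutrophil genes S100a8 and S100a9 moved the same way in cells of other types. An S100a8 or S100a9 UMI was found in 4.07% of TG and 61.0% of WT macrophage-like cells, and in 3.71% of TG and 60.3% of WT B-like cells. The summed neutrophil markers stood at 89.8 CPM in TG and 494 CPM in WT macrophage-like cells. In B-like cells 0.403% of TG and 3.32% of WT cells had a Hp UMI, against 0.633% of TG and 7.68% of WT macrophage-like cells. The part of neutrophil RNA in the Hp difference was not tested. Per 1000 S100a8 and S100a9 UMIs there were 159 Hp UMIs in WT macrophage-like cells, 28.8 in WT B-like cells and 10.6 in WT neutrophil-like cells. In WT cells of finer cluster 1, the finer macrophage-like cluster, the value was 61.4. In TG it was 102 in macrophage-like cells, 97.8 in B-like cells and 14.6 in neutrophil-like cells, the first 2 from 12 and 9 Hp UMIs. Leaving out macrophage-like cells with an S100a8 or S100a9 UMI kept 1061 of 1106 TG but only 259 of 664 WT cells. Hp then fell under the count minimum, 0 genes were lower, and Mt2 was past the fold higher at 1.63. Before this filter Mt2 had 86 UMIs in TG and 55 in WT, so at most 55 WT UMIs stand behind that value. The part of the lost WT cells in these changes was not tested.

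In monocyte-like cells most of the genes were lower in TG, with 6 of the 7 genes tested past the fold lower and 0 higher. Of all 7392 genes tested there, 7.87% were lower and 11.2% higher. The 7 genes had a median log2 ratio of -1.31, against 0.06 over all genes tested. The genes past the fold were Hp, Mt2, Mt1, Hmox1, Fth1 and Slc11a1. Slc40a1 and Tfrc had too few UMIs. The cluster held 437 TG and 814 WT cells, 6.22% of TG and 12.6% of WT metadata cells.

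Hp stood at 399 CPM in TG (372 to 426) and 2247 CPM in WT (2204 to 2291), a ratio of 0.177. Mt2 stood at 30.9 CPM in TG (24.0 to 39.3) and 189 CPM in WT (177 to 202), a ratio of 0.164. Mt1 stood at 539 CPM in TG (509 to 571) and 2169 CPM in WT (2126 to 2212), a ratio of 0.249. For all 3 the TG interval lay far below the WT interval.

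The haem and iron genes differed less. Hmox1 stood at 63.3 CPM in TG (53.1 to 74.8) and 157 CPM in WT (146 to 169), a ratio of 0.403. Fth1 stood at 15673 CPM in TG and 35747 CPM in WT, a ratio of 0.438 (0.433 to 0.444). Slc11a1 stood at 91.0 CPM in TG (78.7 to 105) and 177 CPM in WT (165 to 189), a ratio of 0.515. Ftl1, by contrast, had 5449 CPM in TG and 6502 CPM in WT, a ratio of 0.838, so the heavy chain and the light chain of ferritin parted in these cells. The summed neutrophil markers were lower here as well, at 155 CPM in TG and 2241 CPM in WT. Among the cells without an S100a8 or S100a9 UMI (415 TG and 295 WT cells), 6 of 7 genes were still lower, with Mt1 at 0.357, Fth1 at 0.572 and Hp at 0.251.

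The monocyte-like cluster is made of finer clusters, and finer cluster 11 held most UMIs of several of these genes in WT. It held 11.4% of TG and 24.8% of WT monocyte-like cells. Yet it held 14.9% of the Mt1 UMIs of TG and 80.2% of those of WT monocyte-like cells. For Mt2 the shares were 34.3% in TG and 91.8% in WT, for Hp 44.1% and 73.6%, for Fth1 31.8% and 69.7%, and for Hmox1 13.9% and 66.9%, in TG and WT. In TG, 46 cells of finer cluster 9, which was led by dendritic and mast cell genes, held 27.0% of the Mt1 UMIs of the class. They also held 37.3% of its Mt2 UMIs, 25 of 67. Without finer cluster 11, 2 genes remained past the fold lower, Hp at 0.301 and Slc11a1 at 0.610. Fth1 was then at 0.792, Hmox1 at 0.841, Mt1 at 0.856 and Mt2 at 1.05. These values still include the cells of finer cluster 9.

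Finer cluster 3 is the larger of the monocyte-like clusters, with 390 TG and 636 WT cells, and is led by Chil3. In it 3 of 7 genes were past the fold lower, Hp, Slc11a1 and Mt2, where 7.03% of all genes tested were lower and 8.33% higher. Fth1 stood at 12754 CPM in TG and 15130 CPM in WT, a ratio of 0.843, and Hmox1 at 71.8 CPM in TG and 83.7 CPM in WT, a ratio of 0.858. Mt1 stood at 466 CPM in TG and 610 CPM in WT, a ratio of 0.764. Hp stood at 259 CPM in TG and 815 CPM in WT, a ratio of 0.318 (0.288 to 0.351). In this cluster WT cells had 658 Hp UMIs per 1000 S100a8 and S100a9 UMIs, against 28.8 in WT B-like cells. Slc11a1 stood at 75.0 CPM in TG and 118 CPM in WT, a ratio of 0.635, and Mt2 had only 23 UMIs in TG and 67 in WT.

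Finer cluster 11 had 51 TG and 217 WT cells, so its TG values rest on few cells. It was named from 6 of 10 monocyte markers at least 2-fold up, none of them among its 10 leading genes. Of its 7 genes tested, 5 were past the fold lower, where 15.8% of all genes tested were lower and 18.8% higher. Fth1 alone made up 45374 CPM in TG and 87387 CPM in WT, a ratio of 0.519. Mt1 stood at 729 CPM in TG (625 to 846) and 6042 CPM in WT (5910 to 6176), a ratio of 0.121. Mt2 stood at 96.4 CPM in TG and 608 CPM in WT, Hp at 1597 CPM in TG and 5720 CPM in WT, and Hmox1 at 79.6 CPM in TG and 376 CPM in WT. Slc11a1 and Ftl1 were inside the fold: Slc11a1 stood at 268 CPM in TG and 334 CPM in WT, and Ftl1 at 5558 CPM in TG and 7187 CPM in WT.

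In finer cluster 11 the difference was also seen in the median cell. The median TG cell had 291 CPM of Mt1 and the median WT cell 3723 CPM. For Fth1 the medians were 37926 CPM in TG and 83333 CPM in WT. An Mt1 UMI was found in 58.8% of TG cells (30 of 51, 44.2 to 72.4%) and 89.9% of WT cells (195 of 217, 85.1 to 93.5%). Median depths were 4615 UMIs in TG and 6400 UMIs in WT, and after each cell was thinned to 1000 UMIs the shares were 37.3% in TG and 78.7% in WT. The thinned shares in B-like cells were 2.65% in TG and 3.34% in WT. The TG values lean more on single cells, since 5 cells held 45.4% of the Mt1 UMIs in TG and 13.5% in WT.

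**Figure D4:**
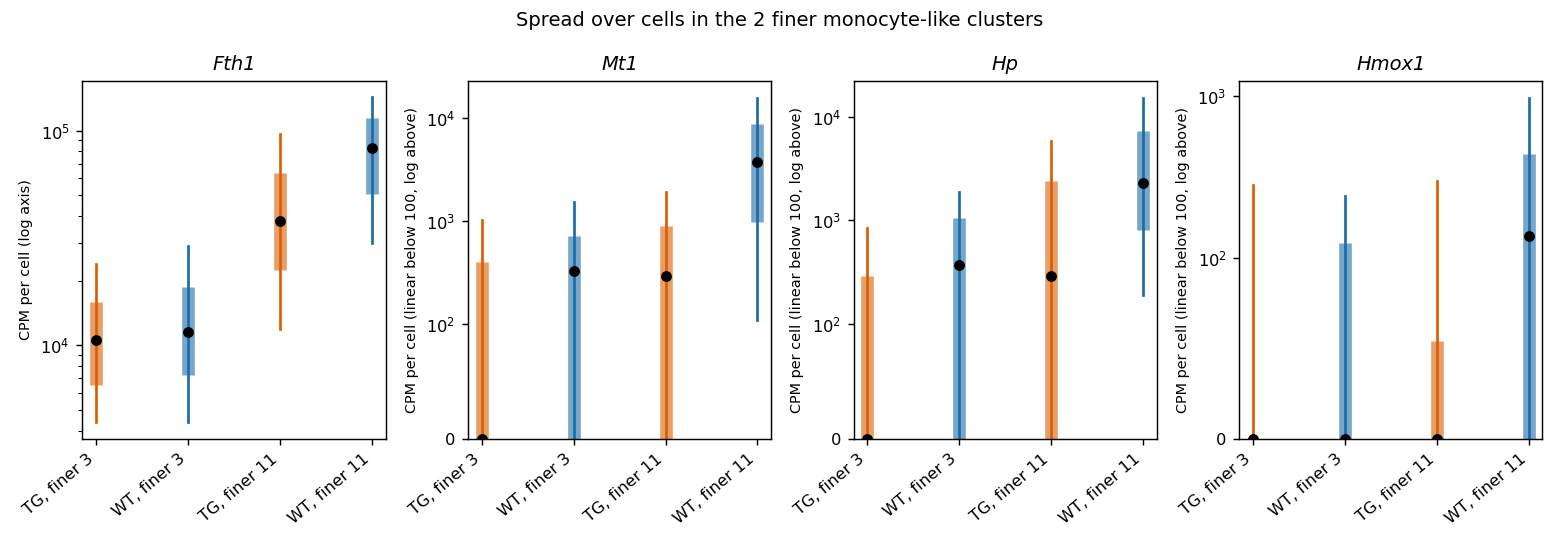
CPM per cell of 4 genes in finer clusters 3 and 11, TG left of WT; a thin line runs from the 10th to the 90th percentile of cells, a thick bar from the 25th to the 75th, and a dot is the median. The median of Mt1 in cluster 11 is 291 CPM in TG cells and 3723 CPM in WT cells, while that of Fth1 in cluster 3 is 10546 CPM in TG cells and 11528 CPM in WT cells.

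In neutrophil-like cells the genes moved both ways. Of 7 genes tested, 4 were past the fold lower (Hmox1, Fth1, Hp and Slc11a1) and 2 higher (Mt1 and Slc40a1). Over all 3721 genes tested, 10.6% were lower and 46.9% higher, and the median log2 ratio was 0.52, so 2 of 7 higher is no more than the background share. The cluster held 167 TG and 648 WT cells, and the summed neutrophil markers stood at 103797 CPM in TG and 252470 CPM in WT, and the macrophage markers at 2624 CPM in TG and 973 CPM in WT. The part of this makeup in the results was not tested.

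Hmox1 stood at 81.7 CPM in TG (53.9 to 119) and 242 CPM in WT (224 to 262), a ratio of 0.337. In 5 cells lay 59.3% of its UMIs in TG and 31.4% in WT, and without them the ratio was 0.205. Fth1 stood at 21051 CPM in TG and 38488 CPM in WT, a ratio of 0.547. Hp stood at 1319 CPM in TG and 2354 CPM in WT, a ratio of 0.561, and Slc11a1 at 112 CPM in TG and 188 CPM in WT, a ratio of 0.595. Relative to the shift of all genes, these 4 ratios became 0.234, 0.380, 0.390 and 0.414. Ftl1 stood at 6373 CPM in TG and 5611 CPM in WT, a ratio of 1.14, and relative to the shift it was 0.790, on the other side of 1.

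Mt1 stood at 139 CPM in TG (102 to 186) and 67.5 CPM in WT (57.8 to 78.4), a ratio of 2.06 (1.46 to 2.87), from 46 TG and 171 WT UMIs. Slc40a1 had a ratio of 1.54 (1.08 to 2.15). Relative to the shift, Mt1 was at 1.43 and Slc40a1 at 1.07, inside the fold, and without the 5 cells richest in it Slc40a1 was at 1.24. Leaving out 1 TG cell with 4 UMIs put Slc40a1 at 1.40, also inside the fold. The Mt1 ratio was also inside it without the barcodes of highest doublet score (1.33) and with the barcodes above the gene number limit added (1.25). An Mt1 UMI was found in 14.4% of TG and 11.7% of WT neutrophil-like cells, and in 4.47% of TG and 8.09% of WT B-like cells. Mt2 had 0 UMIs in 167 TG cells and 18 UMIs in 648 WT cells.

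**Figure D5:**
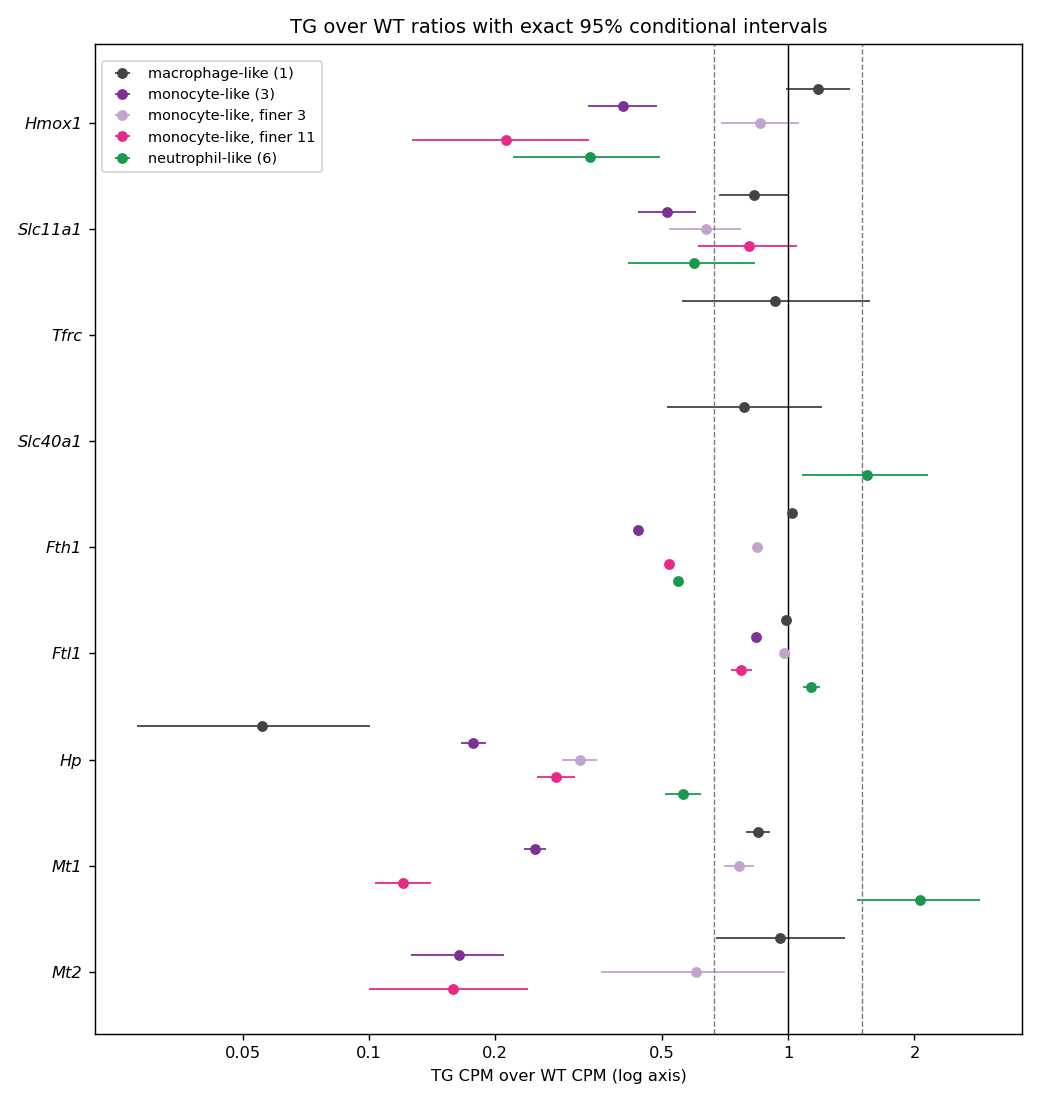
TG over WT ratio of each gene, on a log axis, in macrophage-like, monocyte-like and neutrophil-like cells and the 2 finer monocyte-like clusters, with exact 95% intervals; dashed lines mark 1.5-fold either way, and genes with under 50 UMIs are left out. Macrophage-like points other than Hp lie between the dashed lines, while points of the coarser monocyte-like cluster other than Ftl1 lie left of them. In finer cluster 3 the points of Fth1, Ftl1, Hmox1 and Mt1 lie between the lines. In finer cluster 11 those of Slc11a1 and Ftl1 do, with Mt1 at 0.121.

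Among the other clusters, the most genes were past the fold in an unnamed one. Coarser cluster 5, with 501 TG and 356 WT cells of low UMI number and mast cell proteases as leading genes, had 7 of 7 genes tested past the fold lower, where 11.6% of all genes tested were lower and 9.41% higher. Mt1 stood there at 265 CPM in TG and 1321 CPM in WT, Fth1 at 6721 CPM in TG and 17760 CPM in WT, and Hmox1 at 39.4 CPM in TG and 176 CPM in WT. Without 1 WT cell that held 356 Ftl1 UMIs, the Ftl1 ratio was 0.682, against 0.588 with it, and inside the fold. Markers of several cell types also differed between the libraries in that cluster, some lower and some higher in TG. The 10 macrophage markers summed to 4984 CPM in TG and 3569 CPM in WT, and the 10 dendritic markers to 4499 CPM in TG and 2294 CPM in WT. The 10 monocyte markers summed to 2565 CPM in TG and 4716 CPM in WT, the 8 mast cell markers to 6249 CPM in TG and 3575 CPM in WT, and the 10 neutrophil markers to 147 CPM in TG and 3347 CPM in WT. Their part in the result was not tested.

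Dendritic-like cells had 2 of 4 genes tested past the fold lower, where 8.27% of all genes tested were lower and 6.66% higher: Mt1 at 187 CPM in TG and 416 CPM in WT, and Hp at 1.88 CPM in TG and 70.8 CPM in WT. One WT cell held 36 of the 49 WT Hp UMIs there, and without it Hp had 3 TG and 13 WT UMIs, under the count minimum, so that call was lost. B-like cells also had 2 of 5 lower, Mt1 and Hp, at low levels, where 3.23% of all genes tested were lower and 5.18% higher. In cluster 7 the 1 gene of 3 past the fold was Fth1, at 2238 CPM in TG and 3717 CPM in WT, where 12.6% of all genes tested were lower and 7.63% higher. Without 1 WT cell its ratio was 0.672, against 0.602 with it, and inside the fold. Cluster 2 had 0 of 4 genes past the fold, where 4.25% of all genes were lower and 7.49% higher. Cluster 4 had 0 of 3, where 5.08% were lower and 5.62% higher, and fibroblast-like cells had 0 of 3, where 14.8% were lower and 13.4% higher.

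Of 50 other iron and metal genes, 34 were tested in macrophage-like cells, and 1 was past the fold higher and 4 lower, where 5.85% of all genes tested were higher and 6.19% lower. Those lower in TG were Lrp1 (a receptor for haem bound to haemopexin) at 79.7 CPM in TG and 134 CPM in WT, Blvra (biliverdin reductase) at 43.4 and 67.9 CPM in TG and WT, Isca1 (iron-sulphur cluster assembly) at 18.4 and 28.0 CPM in TG and WT, and Steap3 (a ferrireductase of the endosome) at 7.32 and 12.0 CPM in TG and WT, whose interval reaches 1. The mitochondrial iron importer gene Slc25a37 was higher, at 23.1 CPM in TG and 15.1 CPM in WT. Cd163, which encodes the receptor for haptoglobin bound to haemoglobin, had 70.8 CPM in TG and 69.3 CPM in WT, a ratio of 1.02. Within lists, the counts past the fold were 0 higher and 2 lower of 13 listed haem genes, 0 higher and 1 lower of 10 for iron uptake, 1 higher and 1 lower of 7 for mitochondrial iron, and 0 in either direction for the storage and the metallothionein and zinc lists. Of the 4 export genes 1 was tested, which was inside the fold, and neither secreted gene had enough UMIs to be tested.

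In monocyte-like cells 2 of these genes were higher and 7 lower of 32 tested, where 11.2% of all genes tested were higher and 7.87% lower. In finer cluster 3, the larger monocyte-like cluster, 2 were higher (Ncoa4 and Fech) and 3 lower (Hfe, Fbxl5 and Lcn2) of 29 tested, where 8.33% of all genes were higher and 7.03% lower. Alas1 and Lrp1 were inside the fold in that finer cluster, and Slc39a14 and Slc11a2 had too few UMIs there. Slc39a14, a zinc and iron importer, stood at 11.1 CPM in TG and 36.9 CPM in WT, and Slc11a2, the transporter DMT1, at 4.62 CPM in TG and 10.2 CPM in WT. Fbxl5, which targets an iron regulatory protein for decay, stood at 49.9 CPM in TG and 106 CPM in WT, and Alas1, the first enzyme of haem synthesis, at 81.8 CPM in TG and 151 CPM in WT. Lrp1 stood at 165 CPM in TG and 248 CPM in WT. Ncoa4, the receptor that takes ferritin to autophagy, was higher, at 31.9 CPM in TG and 17.3 CPM in WT, and Fech, the last enzyme of haem synthesis, at 12.5 CPM in TG and 8.22 CPM in WT had an interval that reaches 1. Lcn2, the siderophore-binding protein lipocalin 2, stood at 6.47 CPM in TG and 251 CPM in WT, its UMIs lay in 8 of 437 TG and 145 of 814 WT cells, and its WT level was a fraction of 0.0262 of that in neutrophil-like cells. The part of free RNA in it was not tested.

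In neutrophil-like cells 3 of these genes were higher and 5 lower of 16 tested, where 46.9% of all genes tested were higher and 10.6% lower. The granule genes moved most: Ltf, lactoferrin, had 4 UMIs in 2 of 167 TG cells and 2346 UMIs in 74 of 648 WT cells, and Lcn2 stood at 841 CPM in TG and 9560 CPM in WT. Hamp, hepcidin, the hormone that closes ferroportin, had 0 UMIs in TG cells and 142 UMIs in 3 WT cells, with 90 in 1 of them. Alas1 stood at 78.7 CPM in TG and 159 CPM in WT, and Slc25a37 at 18.2 CPM in TG and 30.0 CPM in WT, with an interval that reaches 1. The iron chaperone genes Pcbp1 (166 CPM in TG and 59.6 CPM in WT) and Pcbp2 (366 CPM in TG and 194 CPM in WT) were higher, as was Isca1 (72.6 CPM in TG and 28.0 CPM in WT), on the side where 46.9% of all genes were called.

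Over 14 finer clusters with at least 50 cells in each library, taken as 28 points of log2(CPM + 10), the genes fell into patterns. These points share libraries, depth and free RNA, so the correlations are descriptions. Hmox1 and Slc11a1 were closest, with r = 0.96, and Fth1 and Ftl1 had r = 0.92. Mt1 and Mt2 had r = 0.85, while Slc40a1 had no r above 0.35 with any of the others, and Tfrc was below 0 with all but Slc40a1. Among 7065 genes ranked, the 3 most like Hmox1 were Slc11a1, Pla2g7 (0.94) and Cd14 (0.93), and those most like Slc11a1 were Pla2g7 (0.97), Clec5a (0.97) and Tlr2 (0.96). For Fth1 they were Cd14 (0.95), Atp6v1a (0.94) and Il1rn (0.93), and for Ftl1 Pilra, Atp6v0c and Itgam (each 0.96). Hp was most like Clec4e (0.97), Clec4d (0.96) and Tarm1 (0.95). Mt1 was most like Lrp1 (0.91), Tns3 and Cttnbp2nl (each 0.89), and Mt2 most like Ptges (0.88), P4hb (0.87) and Mt1. Slc40a1 was most like Id1, Mtus1 and Gng12 (each 0.82), and Tfrc most like Pigr, Mgat4c and Gtpbp2 (each 0.88).

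Barcodes that the metadata leave out for a high gene number were set beside these cells. Those most like macrophage-like cells (315 TG and 284 WT) had Fth1 at 13715 CPM in TG and 14208 CPM in WT, Hmox1 at 62.2 and 68.1 CPM in TG and WT, and Hp at 15.5 CPM in TG and 17.5 CPM in WT. The Hp ratio was 0.890 there (0.597 to 1.32), against 0.0555 in macrophage-like metadata cells. Slc11a1 stood at 59.3 CPM in TG and 89.1 CPM in WT, a ratio of 0.666 (0.552 to 0.802). That is just past the fold lower, whereas Slc11a1 was inside the fold in macrophage-like metadata cells. Those most like monocyte-like cells (100 TG and 688 WT) had Fth1 at 14287 CPM in TG and 20557 CPM in WT, a ratio of 0.695 and inside the fold, against 0.438 in monocyte-like metadata cells. They had Hmox1 at 66.8 and 159 CPM, Slc11a1 at 77.7 and 134 CPM, Hp at 275 and 1294 CPM, and Mt2 at 31.6 and 67.1 CPM, in TG and WT. Mt1 had 855 CPM in TG and 1005 CPM in WT, a ratio of 0.851. Only 3 of the TG barcodes and 83 of the WT barcodes were most like finer cluster 11. Of those most like finer cluster 3 (97 TG and 605 WT), Mt1 stood at 845 CPM in TG and 563 CPM in WT and Mt2 at 32.4 CPM in TG and 9.60 CPM in WT, with ratios of 1.5 (1.39 to 1.62) and 3.38 (2.16 to 5.22). Both ratios lie above 1, whereas those of metadata cells of that finer cluster, 0.764 and 0.602, lie below it. Barcodes most like finer cluster 13 (79 TG and 97 WT) had Slc40a1 at 49.9 CPM in TG and 84.7 CPM in WT. Neutrophil-like metadata cells had 127 and 82.5 CPM in TG and WT.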

How the data were processed

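Per the labels' protocols, live CD45+ cells were sorted and libraries made with 10x Genomics 5′ chemistry; Cell Ranger 5.0.0, Seurat 4.0 and mm10 are listed, with no steps, per the submitters' processing notes. The authors deposited whole-number UMI counts per gene and barcode and, per the file headers, metadata with cluster numbers for part of the barcodes and the percent of UMIs from mitochondrial and immunoglobulin genes. All metadata cells have over 200 and under 2200 genes and under 5 percent of each of these.

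Counts were summed per library and deposited cluster and divided by the total (CPM) with Python 3.11.15, numpy 2.4.6 and scipy 1.17.1. Clusters were named from marker lists and need at least 50 cells per library for a ratio. A group of 1 library allows no test. The members and lists were chosen with earlier results of these data known. Other iron genes were named if past 1.5-fold with 50 UMIs, at most 8 per cluster by the interval bound nearest to 1, and the 3 most like genes by Pearson r among genes with at least 500 UMIs. Cd163, Mt3, Mt4, Ftl1-ps1, Nfil3 and Ptprc are given outside that rule. Barcodes above the gene limit were given the cluster whose profile made their counts most likely, which gave 84.5% of 6773 held-out cells their finer cluster. Doublets were kept in the values above; as an alternative the 8% of barcodes with the highest Scrublet scores (828 in TG and 843 in WT) were removed. The ratio and its call were tested on simulated data. Gene coordinates were matched by identifier to GENCODE.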

Additional observations from a re-analysis of the deposited data

Results flagged for a closer look

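The TG over WT ratio of Mt1 ran in opposite directions between clusters. It was 2.06 (1.46 to 2.87) in neutrophil-like cells, against 0.602 (0.472 to 0.764) in B-like cells, 0.249 (0.234 to 0.264) in monocyte-like cells, 0.201 (0.170 to 0.235) in coarser cluster 5 and 0.448 (0.380 to 0.529) in dendritic-like cells. The differences between these ratios were not tested, because each genotype has 1 library. In neutrophil-like cells the median ratio over all genes tested was 1.44, and 46.9% of them were past the fold higher. Relative to that shift the Mt1 ratio there was inside the fold, as given above. It was also inside it without the highest doublet scores or with barcodes above the gene number limit. Free RNA, depth and scaling values stand beside the Mt1 results above, and their part was not tested.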

How the results depend on the processing

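Of the results recomputed under other settings, 177 stayed inside the counting interval or, for counts of genes, within 1.5 times. Another 79 moved beyond these limits, and 1 reversed. A ratio that stayed inside its interval could still lose its call, as Slc40a1 did in neutrophil-like cells without 1 TG cell. In macrophage-like cells the counts of other iron and metal genes were 0 higher and 0 lower at a 2-fold size, and among cells without S100a8 or S100a9 UMIs 1 of the 9 genes was higher and 0 lower. In monocyte-like cells 3 of the 9 genes were lower in the largest finer cluster and 2 without finer cluster 11, where Mt2 reversed to 1.05. For other iron genes there the higher count was 1 with median-of-ratios scaling, 1 with a minimum of 100 UMIs and 0 at a 2-fold size, and the lower count was 4 at a 2-fold size. In neutrophil-like cells the higher count of the 9 genes was 0 with median-of-ratios scaling and 1 with totals without the top 20 genes, without the highest doublet scores, with barcodes above the gene number limit, without the 5 cells richest in the gene, or at a 2-fold size. The lower count was 1 at a 2-fold size. Other iron genes there were 9 lower with median-of-ratios scaling and 7 higher with a minimum of 20 UMIs. Of the 9 genes, 4 kept their highest cluster when the finer clusters were used. The cause of these moves was not tested, except that a smaller or larger minimum changes the genes tested. Leaving out the 1 cell richest in a gene, in each library in turn, ended 4 calls: Slc40a1 in neutrophil-like cells, Ftl1 in cluster 5, Fth1 in cluster 7 and Hp in dendritic-like cells. The settings without that cell, without finer cluster 11 and without S100a8 or S100a9 UMIs were chosen after seeing the data. No paired analysis was possible because each genotype has 1 library. Depth limits Tfrc, Slc40a1 and Mt2 most: in most coarser clusters they had under 50 UMIs over both libraries, so no ratio was called.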
